A study of Mus musculus with 2 samples.

Results

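The cavity spots were the Visium spots that lay between the bone spots of a healing mouse femur. For each section, the convex hull of the spots that the study assigned to bone at the fracture site was drawn. A spot was kept when it lay under tissue inside that hull, was not itself a bone spot, and held at least 500 unique molecular identifiers (UMIs, each counting 1 captured probe molecule) from at least 250 genes. This gave 217 of 1962 spots in the Control section and 215 of 1436 in the Loaded section, 432 of 3398 in all. A single further Control spot inside the hull fell short, with 392 UMIs. The 2 cavities shared 0 slide barcodes, so no spot position was used in both.

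Both sections came from right femurs of female bone cell reporter (BCR) mice, a line in which fluorescent proteins (eGFP and mCherry) label osteoblasts through *Ibsp* and osteoclasts through *Acp5*. Each mouse received a mid-diaphyseal defect of 0.68 mm on average at 12 weeks of age, held by an external fixator, and showed bony bridging by week 3. From week 3 to week 5 the Loaded mouse received cyclic mechanical loading through the fixator in 3 sessions per week, and the Control mouse received sham loading on the same schedule. Both were euthanized at 17 weeks of age, hours after the final session and not directly after it. From each group, 1 formalin-fixed, paraffin-embedded section was profiled. With 1 section per group there was no replicate check, and a difference between the sections cannot be told apart from a difference between 2 mice, 2 cuts or 2 libraries. All intervals are exact 95% intervals that cover counting error only.

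The hollow of a long bone is filled by marrow, in which blood cells form. Red cell precursors make hemoglobin and heme, neutrophils load antimicrobial proteins into successive granules as they mature, megakaryocytes shed platelets, and B cells and plasma cells make immunoglobulin. Stromal cells, adipocytes and sinusoidal vessels support them, and osteoblasts and osteoclasts line the bone that surrounds the space. A spot covers a small area and can hold several cells of different types, so the values below describe places and not cells. In such summed counts fewer cells of a type and less RNA per cell cannot be told apart.

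Cavity depth differed between the sections. The median spot held 1951 UMIs and 1188 genes in Control and 2594 UMIs and 1511 genes in Loaded, with totals of 494997 and 569994 UMIs. With every spot reduced at random to 1000 UMIs, the median number of genes was 680.5 in 212 Control spots and 701 in 211 Loaded spots, with 5 and 4 shallower spots left out. The bone region held 131 spots with a median of 3478 UMIs in Control and 146 with 2621 in Loaded. The number of genes in the files was 19465.

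The layout of the spots differed as well. The Control cavity spots formed 2 bands along the bone walls around a centre without spots, whereas the Loaded spots filled 2 chambers separated by a bony waist. Only spots under tissue were used, and whether the Control gap was present in the mouse or arose in cutting was not tested. In Control, 185 of 217 spots had bone on both sides across the shaft and 32 did not. In Loaded, 212 of 215 did and 3 did not. Most of the 32 Control spots sat on the outer face of the bone, 29 of them touching it, where the convex hull bridged a concave surface. They held few marrow transcripts. Erythroid genes took 2.15% of their UMIs, against 15.2% in the 185 enclosed Control spots and 12.2% in the 212 enclosed Loaded spots, and neutrophil genes 0.0685% against 0.564% in enclosed Control spots. Fibroblast matrix genes took 2.01% against 0.667%, tendon genes 0.488% against 0.190%, and Schwann cell genes 0.139% against 0.0459%. Those 32 spots held a median of 2879.5 UMIs and supplied 131319 of the 494997 Control UMIs. Results are therefore given for all cavity spots and, where it matters, for enclosed spots alone.

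The cavity carried the transcripts of red marrow in both sections. Of 349 entries in 27 marker lists, 333 matched a gene in the files. The 18 matched erythroid genes took 11.8% of cavity UMIs in Control [11.7, 11.9] and 11.9% in Loaded [11.9, 12.0]. In the bone region the same genes took 2.57% and 3.15%, and outside the hull 1.19% and 2.10%. All 18 were above 0 in both cavities, as were all matched genes of the neutrophil, megakaryocyte, B lineage and marrow stroma lists. The same held for the skeletal muscle, tendon and Schwann cell lists, so presence alone did not mark marrow. Marrow stroma genes took 0.0531% of the Control cavity and 0.0569% of Control bone. In Loaded they took 0.0595% and 0.0658%, and the counting intervals overlapped in both sections.

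**Figure D1:**
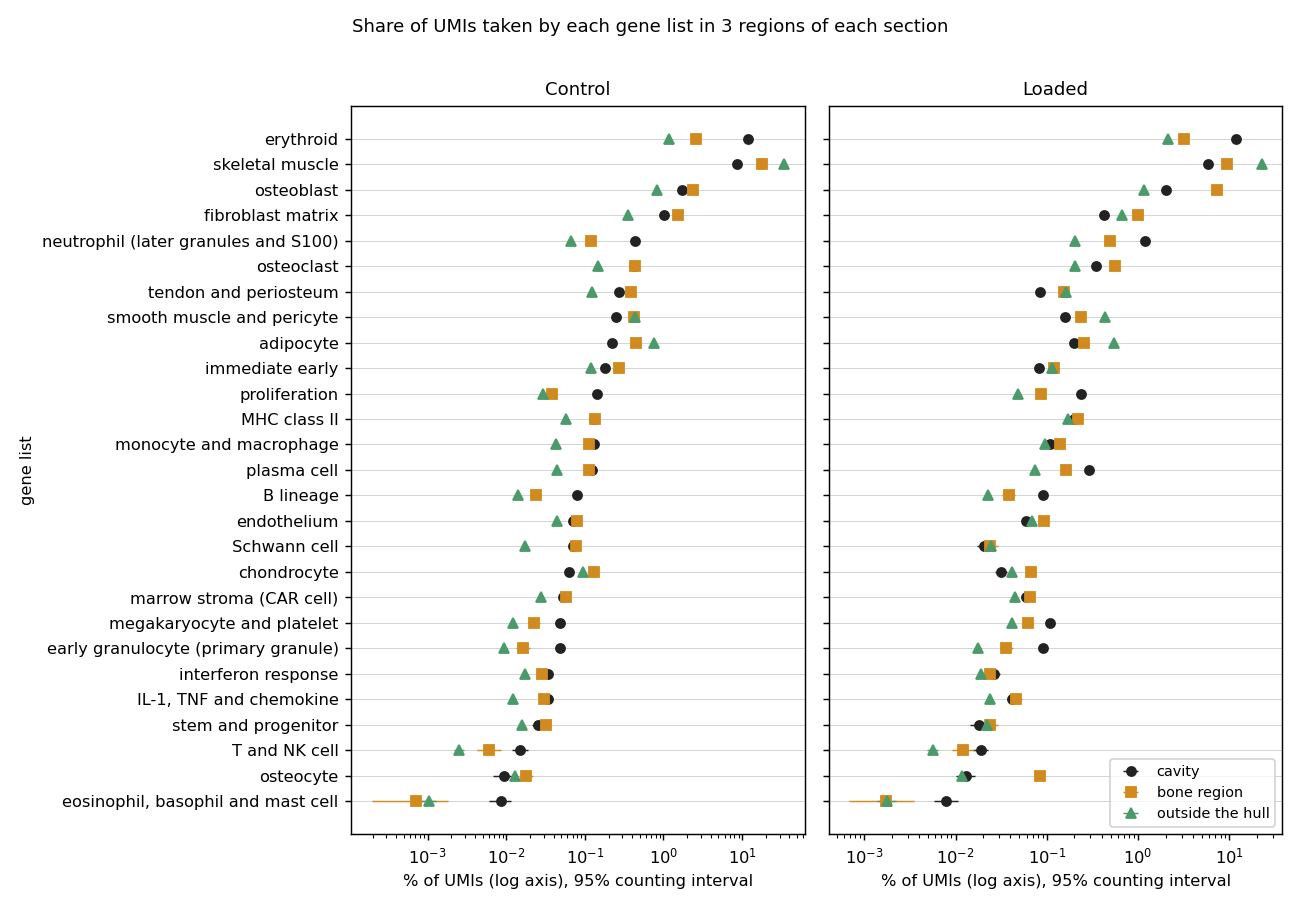
Share of all UMIs (percent, log axis) taken by each of 27 gene lists in the cavity, the bone region and the spots outside the hull, for the Control section (left) and the Loaded section (right). Points are summed shares and bars are exact 95% binomial intervals. Erythroid genes take 11.8% and 11.9% of cavity UMIs, above the other 2 regions of each section.

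Other blood lineages were present at lower levels. Neutrophil genes took 0.433% of cavity UMIs in Control [0.414, 0.451] and 1.18% in Loaded [1.16, 1.21], compared with 0.121% and 0.486% in the bone region. Genes of dividing cells took 0.143% and 0.234% in the cavity and 0.0382% and 0.0863% in bone. B lineage genes took 0.0786% in the Control cavity and 0.0904% in the Loaded cavity, and megakaryocyte genes 0.0481% and 0.108%. Not every blood list took a larger share in the cavity than in bone. Monocyte and macrophage genes took 0.132% of the Control cavity and 0.114% of Control bone, and 0.109% and 0.139% in Loaded. MHC class II genes took 0.132% and 0.136% in Control and 0.196% and 0.221% in Loaded, and stem and progenitor genes 0.0257% and 0.0318% in Control and 0.0179% and 0.0237% in Loaded. Eosinophil, basophil and mast cell genes amounted to 42 and 45 UMIs, and T and NK cell genes to 75 and 108. *Siglecf*, an eosinophil receptor, was at 0 in the Loaded cavity and *Cd8b1*, a cytotoxic T cell coreceptor, at 0 in the Control cavity. Counts this low do not show that a gene was absent.

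Muscle transcripts were also present throughout the cavity. The 26 skeletal muscle genes took 8.53% of Control and 5.90% of Loaded cavity UMIs, against 34.3% and 22.6% outside the hull. No cavity spot was free of them: the lowest share in a spot was 1.72% in Control and 2.85% in Loaded, and only 28 and 50 spots lay below 5%. *Acta1*, the actin of skeletal muscle, was still seen in 99.5% of Control and 100% of Loaded cavity spots after thinning to 1000 UMIs. The reverse was also seen. In muscle-rich spots outside the hull, *Hbb-bt*, a beta-globin, was found in 34.4% of Control and 51.3% of Loaded spots after thinning, and *Camp*, the cathelicidin antimicrobial peptide, in 18.2% and 27.0%. The corresponding cavity shares were 95.8% and 99.1% for *Hbb-bt*, and 76.9% and 90.0% for *Camp*. Before thinning, *Camp* was found in 87.1% and 96.3% of cavity spots and in 33.9% and 51.8% of muscle-rich spots, whose median depths were 4629 and 3351 UMIs.

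The cavity was then set against the bone region of its own section. In Control, 987 of 8009 genes with at least 20 UMIs were more than 2-fold higher in the cavity (12.3%) and 431 lower (5.38%). In Loaded, 846 of 7796 were higher (10.9%) and 794 lower (10.2%). Among genes with at least 100 UMIs, the only one of the 5 highest in both sections was *Hbb-bt*, at +2.53 on the log2 scale in Control [2.44, 2.62] and +2.32 in Loaded [2.23, 2.40]. *Alas2*, the first enzyme of heme synthesis in red cell precursors, stood at +2.66 and +2.29, and *Slc4a1*, the band 3 anion exchanger of red cells, at +2.80 and +1.76. Of 16 erythroid genes, 14 passed 2-fold in each section.

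The osteoblast list had a median cavity over bone log2 ratio of −0.59 in Control and −1.84 in Loaded. Past 2-fold lower were 2 of 11 genes in Control, against 5.38% of all genes. In Loaded 11 of 13 were, against 10.2%. These ratios used all cavity spots and were not computed for enclosed spots alone. Osteoblast genes took 2.99% of UMIs in the 32 Control spots without bone on both sides. They took 1.28% in enclosed Control spots and 2.40% in Control bone. *Bglap*, which encodes osteocalcin, had almost the same level in both Control regions (−0.01 [−0.40, 0.37]) and was lower in the Loaded cavity than in Loaded bone (−2.0 [−2.18, −1.82]). *Spp1*, osteopontin, stood at −0.65 and −2.62, and *Dmp1*, a matrix protein of osteocytes, at −1.78 and −2.84. The osteoclast list had a median of 0.38 in Control, with 1 of 9 genes past 2-fold higher, against 12.3% of all genes, and 0 lower. In Loaded the median was −0.65, with 1 higher, against 10.9% of all genes, and 4 lower, against 10.2%. The counts of higher genes were close to those shares. Within that list *Ctsk*, the collagen-degrading protease of osteoclasts, stood at −0.63 and −2.06. *Car2*, carbonic anhydrase 2, which red cells also make, was past 2-fold higher in both, at +2.42 and +1.9. The difference between the sections in these ratios was not tested.

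Marrow composition differed with distance from bone. Enclosed spots were divided into those touching a bone spot (within 110 µm), those between, and deep spots more than 210 µm from any bone spot. The erythroid share was 10.3% in the 59 touching, 15.6% in the intermediate and 18.3% in the 75 deep Control spots. In Loaded it was 7.56% in 68 touching spots, 12.6% between and 15.4% in 94 deep spots. The 12 Control erythroid genes with at least 20 UMIs in these zones were all higher in deep spots, and 11 of 14 were in Loaded. How many of all genes were higher in deep spots was not computed, so these counts have no background. The erythroid share was higher deep than next to bone in each of the 4 segments of both cavities. Across all cavity spots, the erythroid share had a Spearman correlation of 0.56 with distance from bone in 217 Control spots and 0.54 in 215 Loaded spots. The Control value includes the 32 spots without bone on both sides, 29 of them touching bone. The Control deep over touching log2 ratio was 1.72 in all cavity spots and 0.83 in enclosed spots. In Loaded it was 1.10 and 1.03. The correlation was not computed for enclosed spots alone. Spots of a section share a library and neighbours, so the values are descriptive.

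Neutrophil transcripts had opposite gradients in the sections. In Control the neutrophil share was lowest next to bone, at 0.449% [0.410, 0.491], 0.581% between and 0.630% [0.592, 0.670] in deep spots. In Loaded it was highest next to bone, at 1.55% [1.49, 1.61], 1.24% between and 0.886% deep [0.849, 0.925]. All 11 Control neutrophil genes with enough counts leaned toward deep spots, and 9 of 14 Loaded genes leaned toward bone. How many of all genes leaned each way was not computed, so these counts have no background. Other Control lists were 1-sided too, with 25 of 26 skeletal muscle and 12 of 12 fibroblast matrix genes higher next to bone. *S100a8*, a subunit of the calcium-binding protein calprotectin, had a deep over touching log2 ratio of +1.27 [0.67, 1.9] in Control and −1.31 [−1.54, −1.08] in Loaded. *Ngp*, a secondary granule protein, stood at +0.57 [−0.29, 1.48] and −1.88 [−2.27, −1.51]. In Loaded *S100a9*, the partner subunit of *S100a8*, stood at −1.72, and *Padi4*, which encodes a histone-modifying enzyme, at −1.17 [−2.0, −0.38]. The 5 Loaded genes with a ratio above 0 were *Cd177*, *Cxcr2*, *Csf3r*, *Retnlg* and *Ly6g*, at +0.08 to +0.19 with intervals that included 0. Of the 9 Loaded genes that leaned toward bone, only *Ncf1* had an interval that included 0. In Control only *Camp*, *S100a8* and *S100a9* had intervals that left out 0, and those of the other Control genes included it. The difference between the gradients was not tested. Spot depth moved with the neutrophil share in Loaded, with a Spearman correlation of 0.46 across all cavity spots against −0.16 in Control. The part of depth in the result was not tested.

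**Figure D2:**
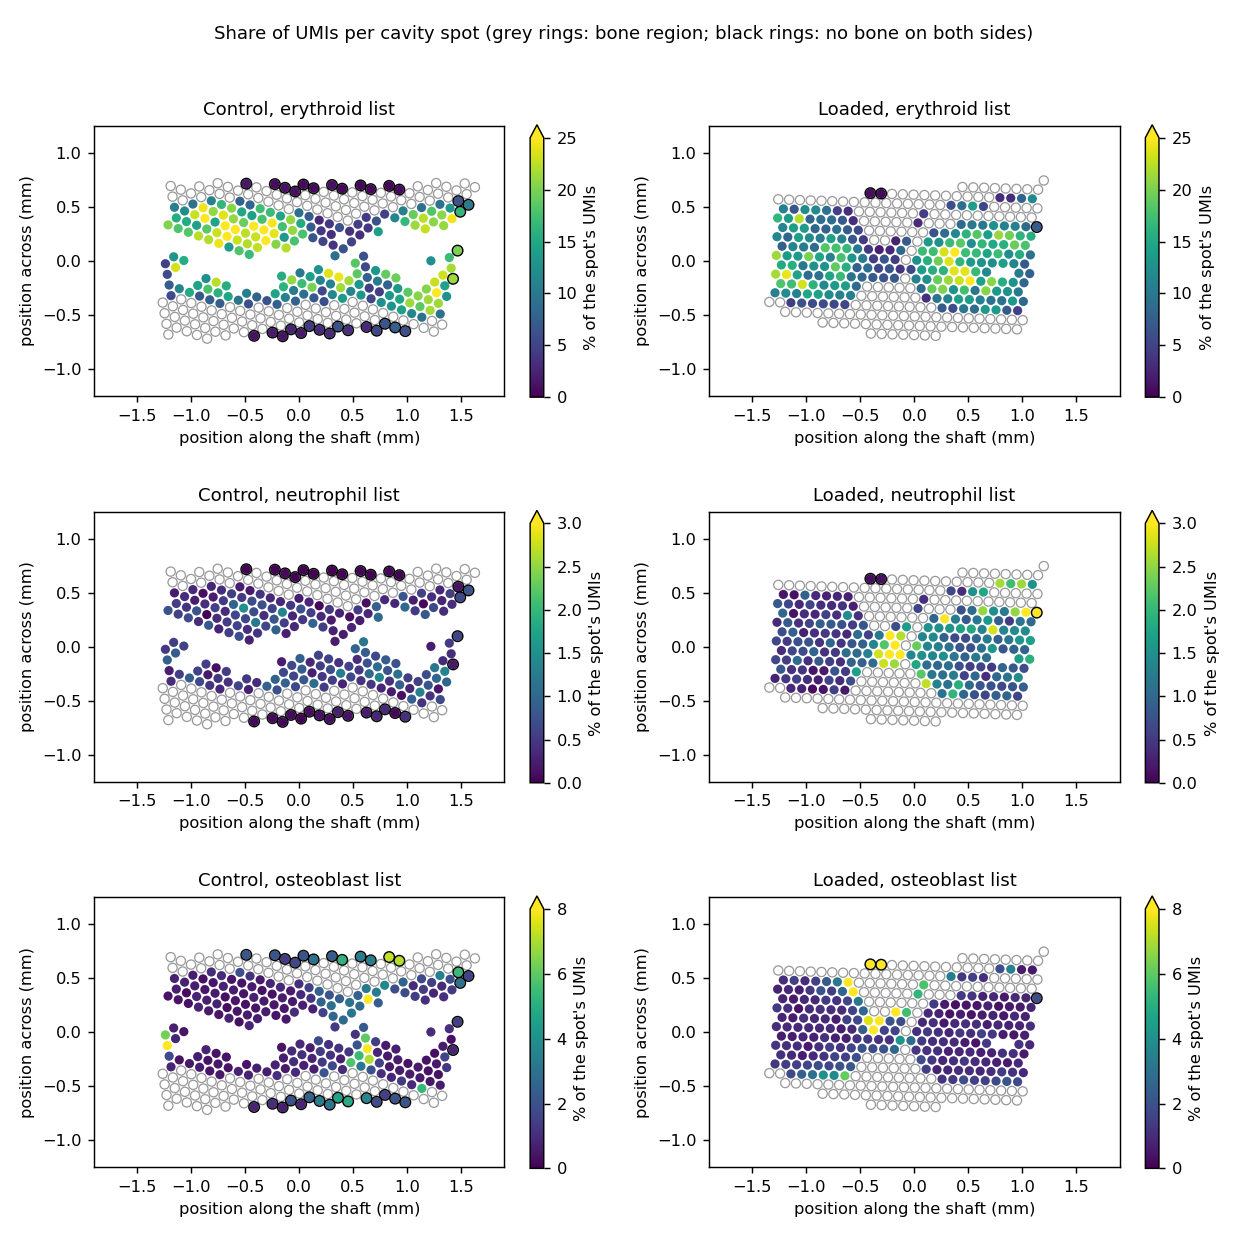
Position of each spot along and across the shaft (mm), coloured by the percent of its UMIs from the erythroid list (top), neutrophil list (middle) and osteoblast list (bottom) in Control (left) and Loaded (right). Open grey rings are bone spots and black outlines mark cavity spots without bone on both sides. The neutrophil share is high at the waist and in one chamber of the Loaded section, and low in the other chamber.

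The Loaded gradient was not the same along the bone. The cavity spots were split into 4 segments of nearly equal spot number along the shaft, of which segment 1 was one end. In segment 1 of Loaded the neutrophil share was 0.354% next to bone and 0.584% deep, the same direction as in Control. In segment 2, which held the waist, it was 1.74% in touching and 0.646% in deep spots, in segment 3 1.52% and 1.02%, and in segment 4 1.73% and 1.20%. All 4 Control segments had more in deep spots, with 0.428% and 0.594% in segment 1 and 0.439% and 0.767% in segment 4. The number of UMIs behind the lowest of these values was 55.

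Plasma cell and megakaryocyte genes also took larger shares near bone in Loaded, with all segments pooled. The plasma cell share was 0.361% next to bone and 0.244% in deep Loaded spots, a log2 ratio of −0.57 [−0.73, −0.40], and stood at 0.126% and 0.137% in Control, a ratio of 0.12 [−0.19, 0.44]. Megakaryocyte genes took 0.132% of touching and 0.0837% of deep Loaded UMIs, compared with 0.0614% and 0.0592% in Control. Osteoblast genes took 3.02% of touching and 0.914% of deep Loaded UMIs, and 1.45% and 1.20% in Control. B lineage genes leaned the other way in Loaded, at 0.0782% next to bone and 0.105% deep. The shares of these lists were not split by segment. The zones were uneven along the shaft, with segment 1 holding 33 of the 94 deep and 11 of the 68 touching Loaded spots.

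**Figure D3:**
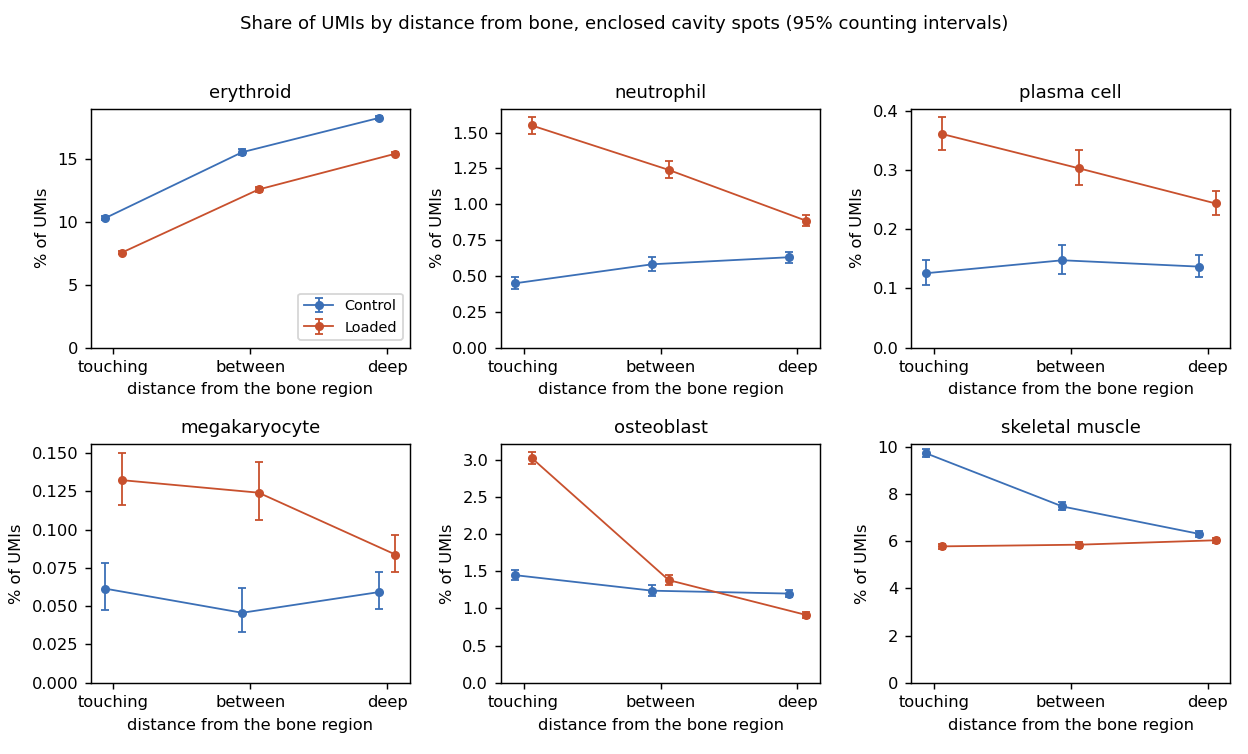
Share of UMIs (percent) of 6 gene lists in enclosed cavity spots touching bone, between, and deep, with exact 95% binomial intervals, for Control (blue) and Loaded (red). The neutrophil share is lowest next to bone in Control (0.449%) and highest there in Loaded (1.55%), while the erythroid share is higher in deep spots of both.

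The cavities were then compared over all genes, as UMIs summed over spots and divided by the summed scran size factors, which estimate the RNA yield of each spot relative to the others. The resulting levels, in UMIs per unit of size factor, were compared only within a gene. Of 8108 genes with at least 20 UMIs over both cavities, 496 were past 2-fold higher in Loaded (6.12%) and 756 past 2-fold lower (9.32%), with a median log2 ratio of 0.00. In enclosed spots alone 334 of 7304 genes were higher (4.57%) and 404 lower (5.53%), and in deep spots 233 of 3654 were higher (6.38%) and 183 lower (5.01%). These shares are the background for the list counts below. In 375 genes every Loaded segment was above every Control segment (4.63%), and in 424 every Loaded segment was below (5.23%). Segments of a section are not replicates, and these counts describe how even a difference was along the shaft.

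**Figure D4:**
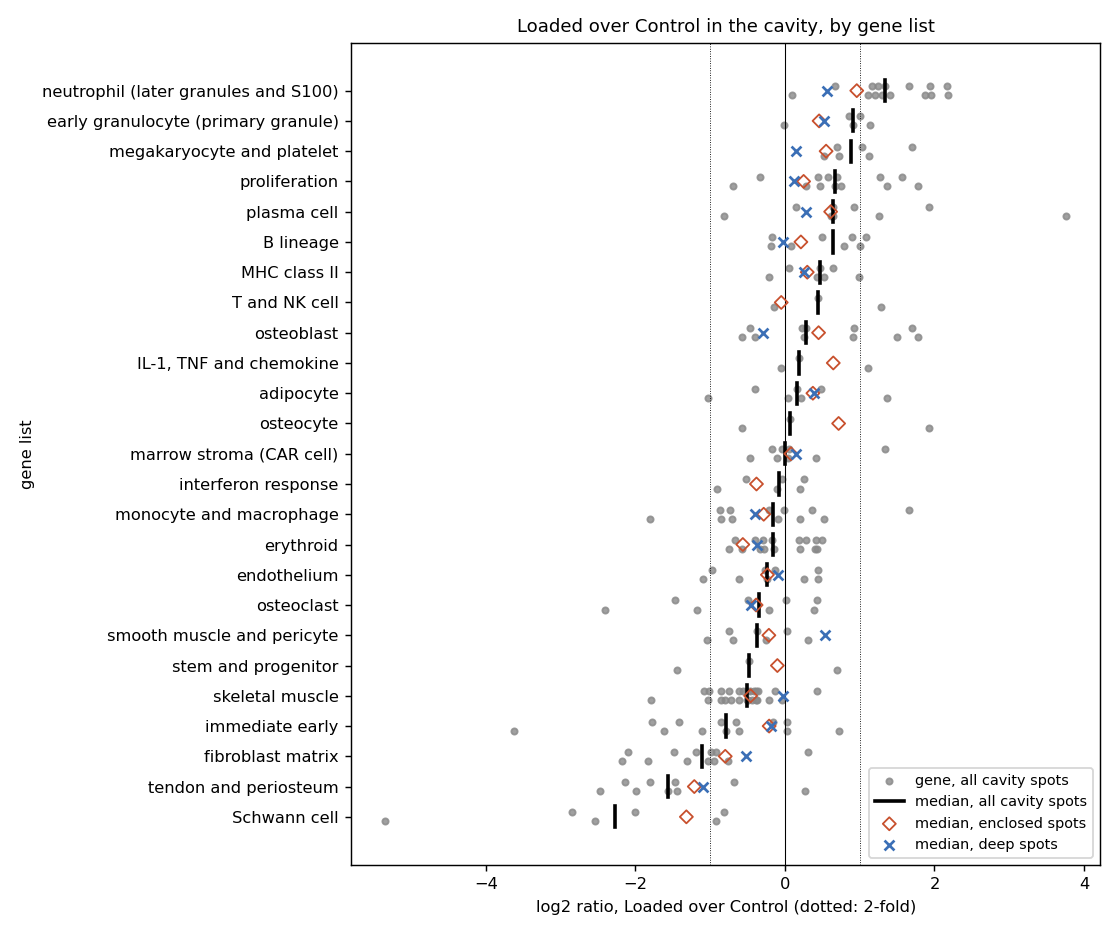
Log2 ratio of Loaded over Control in the cavity for each gene with at least 20 UMIs (grey points) of the 25 lists with 3 or more such genes, with the list median for all cavity spots (black bar), enclosed spots (red diamond) and deep spots (blue cross, where at least 3 genes qualified). Neutrophil genes lie furthest to the right, with 13 of 15 past 2-fold, and the Schwann cell, tendon and fibroblast matrix lists lie furthest to the left.

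Neutrophil genes were the list with the highest median in the Loaded cavity. Of 15 measured genes, 13 were past 2-fold higher and 0 lower, with a median log2 ratio of 1.34, where 6.12% of all genes were past 2-fold higher. In enclosed spots 7 of 15 passed 2-fold, against 4.57% of all genes, with a median of 0.96. In the 77 and 94 deep spots of the whole cavity 3 of 14 did, against 6.38%, with a median of 0.56. *S100a8* had 191 UMIs in Control and 1001 in Loaded, +2.17 [1.95, 2.40]. Its level per unit of size factor was 1.19, 0.918, 0.872 and 0.858 in the 4 Control segments and 1.71, 5.71, 4.81 and 3.87 in the Loaded segments. The groups of segments did not overlap, but Loaded segment 1 lay much closer to Control than the others. *Camp* had 769 and 2362 UMIs (+1.40 [1.28, 1.52]), with levels of 4.87, 3.41, 2.86 and 4.76 in the Control segments and 4.49, 11.3, 11.3 and 11.7 in the Loaded segments, so its segments overlapped. *Ncf1*, a subunit of the NADPH oxidase, ranged over 1.54 to 2.42 in the Control segments and 3.37 to 5.31 in the Loaded segments (+1.12 [0.95, 1.29]). Over 12 processing alternatives the log2 ratio ran from 0.61 to 2.78 for *S100a8*, 0.35 to 2.03 for *Camp* and 0.64 to 1.54 for *Ncf1*.

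The summed neutrophil share had the same distribution along the shaft. It was 0.490%, 0.385%, 0.393% and 0.488% in the Control segments and 0.540%, 1.42%, 1.27% and 1.30% in the Loaded segments. The single highest spot held 1.49% in Control and 5.12% in Loaded. The 2 genes short of 2-fold were *Ltf*, lactoferrin, at +0.67 [0.44, 0.89], and *Ly6g*, a surface marker of mouse neutrophils, at +0.09 [−0.52, 0.71]. Early granulocyte genes are the proteases and peroxidase of primary granules. Their median was 0.91, with 2 of 5 past 2-fold higher, against 6.12% of all genes, and 0 lower. *Elane*, neutrophil elastase, stood at +1.14 [0.77, 1.52], *Mpo*, myeloperoxidase, at +1.01 [0.37, 1.67] and *Prtn3*, proteinase 3, at +0.91 [0.50, 1.34]. In enclosed spots their median was 0.46 and 0 passed 2-fold.

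The neutrophil difference was also seen beyond the cavity. The same list had a Loaded over Control median of 1.77 in the bone region, where 14 of 14 genes were past 2-fold higher, and 1.02 in the spots outside the hull, where 8 of 15 were. Of all genes, 674 of 7745 were past 2-fold higher in the bone region (8.7%) and 534 of 12894 outside (4.14%). After thinning to 1000 UMIs, *S100a8* was found in 33.5% of Control and 62.1% of Loaded cavity spots. In muscle-rich spots outside it was found in 5.47% and 11.3%. The thinned share for *Igkc*, the kappa light chain constant region, was 24.1% and 57.3%, against 3.99% and 13.8% in muscle-rich spots. Spots of a section are not replicates, so these shares of spots carry no interval.

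Immunoglobulin genes were also higher in the Loaded cavity. *Ighg3*, an IgG heavy chain gene (chromosome 12, 113356224 to 113361232), had 9 UMIs in Control and 142 in Loaded, +3.76 [2.80, 4.92], and all 4 Loaded segments (0.432 to 0.680) were above the Control segments (0 to 0.113). *Igkc* had 156 and 690 UMIs, +1.93 [1.68, 2.19], with segments of 0.991, 0.669, 0.872 and 0.598 in Control and 1.61, 2.20, 4.20 and 3.53 in Loaded. In the bone region the *Igkc* ratio was 0.33, and outside the hull 2.06. *Ighm* stood at +1.26 [0.90, 1.64] and *Igha* at +0.64 [0.37, 0.91]. Immunoglobulin constant regions are similar in sequence, so that reads of one class may be counted under another. The plasma cell list as a whole had 3 of 9 genes past 2-fold higher, against 6.12% of all genes, and 0 lower, with a median of 0.64. *Xbp1*, a transcription factor of secretory cells, stood at +0.64 [0.26, 1.04] and *Sdc1*, the plasma cell surface marker CD138 that is also found on other cells, at −0.82 [−1.58, −0.08]. *Ighg1* was at 0 in both cavities, and *Ighg2b* at 0 in Control.

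B lineage genes had a median of 0.64 over 8 genes, 2 of them past 2-fold higher, against 6.12% of all genes, and 0 lower. *Cd79a*, part of the B cell receptor, had 166 and 170 UMIs (−0.18 [−0.50, 0.14]), and *Ms4a1*, which encodes CD20, 24 and 59 (+1.08 [0.37, 1.83]). The median was −0.03 in deep spots. In enclosed spots it was 0.21 and *Cd79a* stood at −0.61 [−0.93, −0.28]. The MHC class II list had a median of 0.46 with 0 of 7 genes past 2-fold. *Cd74*, the invariant chain, had the most counts, 457 and 825 UMIs (+0.64 [0.47, 0.80]), and its Loaded segments (3.36 to 3.84) were all above its Control segments (1.64 to 2.64). The difference was not confined to the cavity: the MHC class II median was 0.54 in the bone region and 1.03 outside the hull.

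Megakaryocyte genes had a median of 0.88, with 3 of 6 past 2-fold higher, against 6.12% of all genes, and 0 lower. *Pf4*, platelet factor 4, had 99 and 250 UMIs (+1.12 [0.78, 1.47]). *Ppbp*, a chemokine stored in platelets, had 50 and 188 UMIs (+1.69 [1.24, 2.17]), and its Loaded segments (0.544 to 1.13) were above its Control segments (0.133 to 0.327). In enclosed spots the list median was 0.55 and 1 of 6 genes was past 2-fold higher, against 4.57% of all genes. In deep spots the list median was 0.15, with *Pf4* at 0.57 [−0.03, 1.20] and *Ppbp* at 1.41 [0.64, 2.24]. The difference was not confined to the cavity: the list median was 1.57 in the bone region and 1.28 outside the hull.

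Erythroid genes differed little when all cavity spots were used and were mostly lower in Loaded when the outer spots were removed. Over all spots the median of 16 genes was −0.16 and 0 passed 2-fold in either direction. The most abundant genes diverged: *Hbb-bs*, a beta-globin, had 24903 and 32880 UMIs (+0.18 [0.16, 0.21]), *Hbb-bt* 5446 and 8500 (+0.43 [0.38, 0.48]), and *Hba-a2*, an alpha-globin, 24400 and 23326 (−0.28 [−0.31, −0.25]). The globin genes have near-identical copies, which leaves the division of counts among them uncertain. The summed share of the list was thus slightly higher in Loaded while the median over its genes was below 0. In enclosed spots the median was −0.56, with 2 of 16 genes past 2-fold lower, against 5.53% of all genes, and 3 above 0. There *Hbb-bs* stood at −0.23 [−0.26, −0.21] and *Hba-a2* at −0.70 [−0.73, −0.67], while *Hbb-bt* was level at −0.0023. *Slc4a1* had segments of 3.18, 1.62, 0.872 and 2.65 in Control and 1.11, 0.822, 1.72 and 1.28 in Loaded, which overlapped.

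Genes of dividing cells were higher in Loaded by less. The list had 4 of 13 genes past 2-fold higher, against 6.12% of all genes, 0 lower, and a median of 0.68. *Mki67*, a marker of cycling cells, had 207 and 384 UMIs (+0.68 [0.43, 0.93]), and *Birc5*, which acts in cell division, 45 and 126 (+1.27 [0.77, 1.79]). In enclosed spots the median was 0.25 and *Mki67* stood at 0.25 [−0.00, 0.51]. The list median was 1.07 in the bone region and 0.34 outside the hull. The stem and progenitor list rested on 3 genes with a median of −0.48, 1 of them past 2-fold lower, against 9.32% of all genes. *Cd34*, a progenitor and vessel surface protein, had 59 and 49 UMIs. The T and NK cell list also rested on 3 genes, with a median of 0.44, and the eosinophil list on 1 gene at 0.03.

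Of 12 monocyte and macrophage genes, 1 was past 2-fold higher and 1 lower, with a median of −0.15. These counts are close to the 6.12% and 9.32% of all genes. *Ccr2*, the chemokine receptor of inflammatory monocytes, had 18 and 66 UMIs (+1.66 [0.89, 2.50]), with Loaded segments from 0.240 to 0.326 above Control segments from 0.0379 to 0.156. *C1qa*, a complement component made by tissue macrophages, stood at −0.86 [−1.24, −0.47] and *Cd68*, a lysosomal protein, at −0.86 [−1.36, −0.38]. In enclosed spots both had intervals that included 0, at −0.39 [−0.84, 0.07] and −0.26 [−0.86, 0.35].

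Osteoclast genes had 3 of 8 past 2-fold lower in Loaded, against 9.32% of all genes, and 0 higher, with a median of −0.35. The levels that set the sections apart lay at 1 end of the Control cavity. *Ctsk* had Control segments of 1.42, 1.18, 3.22 and 6.68 and Loaded segments of 0.961, 1.40, 1.51 and 0.976 (−1.17 [−1.38, −0.96]). Without segment 4 of both sections its ratio was −0.50. *Acp5*, tartrate-resistant acid phosphatase, had Control segments of 0.586, 0.280, 0.759 and 5.20 and Loaded segments of 0.385 to 0.60 (−1.47 [−1.79, −1.16]). *Mmp9*, a gelatinase of osteoclasts and neutrophils, went the other way, with 379 and 577 UMIs (+0.39 [0.20, 0.58]), and *Car2*, carbonic anhydrase 2, was level (0.01 [−0.14, 0.16]). In enclosed spots *Ctsk* stood at −0.55 [−0.80, −0.30] and *Acp5* at −0.41, and 0 of 8 genes passed 2-fold.

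Osteoblast genes had 3 of 11 past 2-fold higher in Loaded, against 6.12% of all genes, 0 lower, and a median of 0.28. The median was −0.29 in deep spots and also −0.29 with segment 2 left out of both sections. Segment 2 held the bony waist in Loaded. Segments were numbered separately in each section, so the part taken out of Control was not a matched place. *Bglap* had 107 and 351 UMIs (+1.5 [1.18, 1.82]), with segments of 0.270, 0.373, 1.04 and 0.416 in Control and 0.601, 2.91, 1.03 and 0.976 in Loaded. *Alpl*, the alkaline phosphatase of mineralizing cells, had 10 and 40 (+1.78 [0.76, 2.95]). *Col1a1* was highest in segment 2 of Loaded, at 29.3, where the other Loaded segments ranged from 6.06 to 8.24 and the Control segments from 6.85 to 18.1. Its ratio was +0.23 [0.15, 0.31] over all spots, −0.29 [−0.47, −0.11] in deep spots and −1.01 without segment 2 of both sections. *Sparc*, osteonectin, stood at −0.58 [−0.73, −0.43]. In the bone region 11 of 13 osteoblast genes were past 2-fold higher in Loaded, against 8.7% of all genes. Of the 3 osteocyte genes with enough cavity UMIs, *Dmp1* had 7 and 31 (+1.93 [0.72, 3.36]), and the list median was 0.07.

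Marrow stroma and adipocyte lists had medians near 0. The stromal list had a median of −0.01 over 8 genes, and *Cxcl12*, the chemokine that retains blood progenitors in marrow, had 51 and 55 UMIs (−0.11 [−0.68, 0.47]). *Ebf3*, a transcription factor of marrow stromal cells, was the single gene past 2-fold (+1.34 [0.52, 2.23]), where 6.12% of all genes were past 2-fold higher. Adipocyte genes had a median of 0.16 over 7 genes, with *Fabp4*, a fatty acid carrier, at 0.21 [−0.13, 0.56] and *Cfd*, the adipokine adipsin, at +1.37 [0.80, 1.96]. In each direction 1 gene was past 2-fold, against 6.12% of all genes higher and 9.32% lower. Endothelial genes had a median of −0.25, with 1 of 9 past 2-fold lower, against 9.32% of all genes. That gene was *Egfl7* (−1.09 [−1.78, −0.42]). These intervals are wide, and differences below 2-fold were often not detectable at this depth.

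Fibroblast matrix genes were lower in the Loaded cavity, with 7 of 12 past 2-fold lower, against 9.32% of all genes, 0 higher, and a median of −1.11. *Mgp*, matrix Gla protein, an inhibitor of mineralization, had 1578 and 513 UMIs (−1.84 [−1.98, −1.69]), with segments of 4.10, 6.47, 12.0 and 9.02 in Control and 3.70, 2.64, 1.29 and 1.63 in Loaded. *Postn*, periostin, had 144 and 37 UMIs (−2.18 [−2.74, −1.65]) and *Fn1*, fibronectin, 579 and 241 (−1.48 [−1.70, −1.26]). *Tnc*, tenascin C, was the exception, at 0.31 [−0.24, 0.87]. In enclosed spots 5 of 12 were past 2-fold lower, against 5.53% of all genes, with a median of −0.80. In deep spots 2 of 12 were, against 5.01%, with a median of −0.52. The Loaded over Control list median was −0.64 in the bone region and 0.28 outside the hull.

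Tendon and periosteum genes had 7 of 9 past 2-fold lower, against 9.32% of all genes, and a median of −1.57. *Thbs4*, a thrombospondin of tendon and muscle, had 717 and 238 UMIs (−1.81 [−2.02, −1.59]). In enclosed spots 4 of 8 were past 2-fold lower, against 5.53% of all genes, with a median of −1.21. The list median was −1.28 in the bone region and 0.19 outside the hull. Schwann cell genes had 4 of 6 past 2-fold lower, against 9.32% of all genes, and a median of −2.27. Their median was −1.84 in the bone region and 0.13 outside the hull. In enclosed spots the median was −1.32 over the 3 genes with enough counts, 2 of them past 2-fold lower, against 5.53% of all genes. In deep spots it was −0.60 over 2 genes. *Ncmap*, a peripheral myelin protein, had 35 UMIs in Control and 1 in Loaded, a log2 ratio of −5.35 with a counting interval from −10.69 to −2.77. It was not among the 3 genes with enough counts in enclosed spots, whose lowest ratio was −2.20. All 3 lists took a larger share of UMIs in the 32 Control spots without bone on both sides than in enclosed ones, and the enclosed-spot medians are the values without them.

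Immediate early genes had 5 of 13 past 2-fold lower, against 9.32% of all genes, and 0 higher, with a median of −0.79. *Ccn2*, a matricellular protein whose gene responds to mechanical signals, had 330 UMIs in Control and 31 in Loaded, −3.63 [−4.21, −3.09]. Its Control segments were 1.44, 1.62, 2.26 and 1.12 and its Loaded segments 0.240, 0.142, 0.120 and 0.0563, and the value was −3.26 [−3.86, −2.71] in enclosed and −3.00 [−3.98, −2.14] in deep spots. In the bone region its ratio was −3.67, and in spots outside the hull −1.15. *Ccn1*, its relative, stood at −1.62 [−2.33, −0.95], and *Egr1* and *Klf2*, transcription factors, at −1.42 [−2.25, −0.63] and −1.77 [−2.63, −0.98]. *Ier2* was higher, at +0.73 [0.29, 1.18]. In enclosed spots 4 of 12 genes passed 2-fold lower, against 5.53% of all genes, with a median of −0.21. The IL-1, TNF and chemokine list had 3 genes with enough counts. Of these, *Il1rn*, the IL-1 receptor antagonist, passed 2-fold higher (+1.11 [0.37, 1.89]), against 6.12% of all genes. Interferon response genes had a median of −0.07 with 0 of 6 past 2-fold.

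Skeletal muscle genes were lower in the Loaded cavity, with a median of −0.51 and 4 of 26 past 2-fold lower, against 9.32% of all genes. *Acta1* had 5248 and 4311 UMIs (−0.50 [−0.56, −0.44]), with Control segments between 16.8 and 35.1 and Loaded segments between 15.6 and 25.3, which overlapped. In enclosed spots the list median was −0.46 with 1 of 26 past 2-fold lower, against 5.53% of all genes. In deep spots it was −0.03 and *Acta1* stood at 0.01 [−0.09, 0.11]. The list median was −1.03 in the bone region and −0.74 outside the hull. Smooth muscle and pericyte genes had a median of −0.37, and the 2 chondrocyte genes with enough counts had values of −1.08 for *Comp*, a cartilage and tendon matrix protein, and 0.57 for *Col2a1*, the collagen of cartilage.

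Among single genes with at least 100 UMIs and segments that did not overlap, the 10 highest in Loaded were *Ighg3*, *S100a8*, *Igkc*, *Cxcr2*, *Coro1a*, *Ppbp*, *Cd177*, *Tardbp*, *Pglyrp1* and *Mbd6*, with log2 ratios from 3.76 to 1.40. On the mm10 build, *S100a8* lies on chromosome 3 (90668978 to 90670035), *Cxcr2*, the chemokine receptor that draws neutrophils, on chromosome 1 (74153989 to 74161246) and *Coro1a*, an actin-binding protein of leukocytes, on chromosome 7 (126699773 to 126707787). *Cxcr2* had 27 and 115 UMIs (+1.87 [1.26, 2.54]) and *Coro1a* 80 and 329 (+1.82 [1.47, 2.20]). *Pglyrp1*, a bactericidal granule protein, stood at +1.5 [1.00, 2.03] over all spots and at 0.15 [−0.63, 0.97] in deep spots. *Tardbp*, an RNA-binding protein, and *Mbd6*, a chromatin protein, belong to no marker list, and neither do *Coro1a* and *Pglyrp1*. *Tardbp* had 43 and 141 UMIs (+1.5 [1.00, 2.03]) and Control segments within 0.202 to 0.234, below Loaded segments of 0.488 to 0.745.

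The 10 lowest were *Ccn2*, *Nbl1*, *Angptl1*, *Lbp*, *Postn*, *Prelp*, *Thbs2*, *Pi16*, *Apod* and *Smoc2*, from −3.63 to −2.0. *Ccn2* lies on chromosome 10 (24595442 to 24598683) and *Nbl1*, which encodes an antagonist of bone morphogenetic proteins, on chromosome 4 (139082284 to 139092993). *Nbl1* had 523 and 105 UMIs (−2.53 [−2.85, −2.23]), with segments of 2.14, 2.24, 3.83 and 2.13 in Control and 0.817, 0.411, 0.330 and 0.375 in Loaded. *Angptl1*, a secreted angiopoietin-like protein, had 168 and 35 (−2.48 [−3.05, −1.95]). *Pi16*, a marker of connective tissue fibroblasts, had 195 and 54 UMIs (−2.07 [−2.53, −1.63]). In enclosed spots the 10 ranged from −3.26 to −1.31. In deep spots *Thbs2* stood at −0.46 [−1.71, 0.80] and *Lbp* at −1.02 [−2.29, 0.20], with intervals that included 0.

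**Figure D5:**
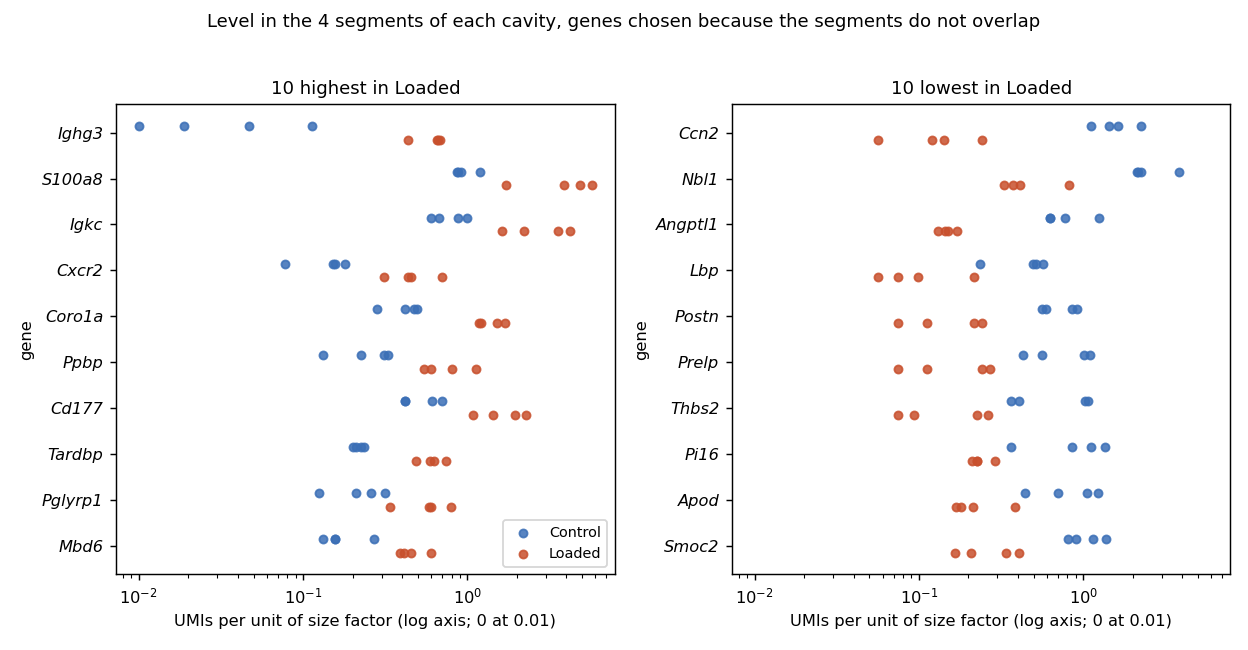
Level in each of the 4 segments (UMIs per unit of size factor, log axis, with 0 drawn at 0.01) of the Control (blue) and Loaded (red) cavity for the 10 highest genes (left) and the 10 lowest (right). The genes were chosen because their segments do not overlap, so the separation is a property of the choice. *Ccn2* runs over 1.12 to 2.26 in Control and 0.0563 to 0.240 in Loaded.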

How the data were processed

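A pair of sections, 1 Control and 1 Loaded, were analysed. The deposited counts are UMIs per gene and spot, made by the authors with SpaceRanger 2.0.0 on a probe panel for formalin-fixed tissue (mm10, per the labels). The deposited spot positions, of unit other, are array rows and columns. Barcode and gene names were taken as deposited. Bone spots were those in the study's spot list.

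Spot distances used steps of 50 µm and 86.6 µm. Counts were summed over cavity spots and divided by summed size factors (scran 1.30.0, R 4.3.3, both cavities together). Intervals are exact conditional binomial for ratios and Clopper-Pearson for shares, computed with scipy 1.17.1. No p-value was computed, because each group has 1 section. A gene was compared at 20 or more UMIs and called past 2-fold. A sum of 0 was set to 3 UMIs, which gives a bound. The ratio script was tested on simulated data.

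Named genes were the 10 highest and 10 lowest with at least 100 UMIs and non-overlapping segments, the 3 genes with most UMIs of each list, the 5 highest and 5 lowest of cavity over bone named where both sections shared them, and list genes at 0. Other genes were added after their values were seen. The members and lists were chosen with earlier results of these data known. The 16 alternatives covered scaling, spot and gene filters, left-out segments and fold. A left-out segment was dropped from both sections at once, although segments were numbered separately in each section. Gene positions are from GENCODE M21. No sample column was left out. Some list genes are not reported here.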

Additional observations from a re-analysis of the deposited data

Results flagged for a closer look

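A pair of cavity patterns differed between the sections. The neutrophil list had a deep over touching log2 ratio of +0.49 in enclosed Control spots and −0.81 in enclosed Loaded spots, and the difference was not tested because each group has 1 section. In Loaded the direction was carried by segments 2, 3 and 4, and segment 1 had the Control direction. The skeletal muscle list had a deep over touching ratio of −0.63 in Control and +0.063 [0.027, 0.099] in Loaded, which was also not tested. Its Loaded share was nearly flat, at 5.78% touching, 5.86% between and 6.04% deep, and 9 of 26 genes were higher next to bone. No other list among the 27 had intervals on opposite sides of 0 in this contrast, and none had cavity over bone medians of at least 0.5 in size with opposite signs.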

How the results depend on the processing

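No paired analysis was possible because each group has 1 section. Of the list medians under 16 alternatives, 351 values lay within the counting interval of the middle gene of the list, 26 lay outside it and 3 changed sign where that interval left out 0. Scaling by library totals, TMM factors or totals without the most abundant genes, equal weights for spots and no spot filter moved neither count by more than 1.5 times. The number of genes past 2-fold higher in the Loaded cavity was 233 in deep spots, 186 at 50 or more UMIs and 1751 with no filter on genes, and 1443 and 76 at folds of 1.5 and 3. The number of genes past 2-fold lower in the Loaded cavity was 404 in enclosed spots, 183 in deep spots, 301 in spots with a muscle share below 5%, 491 without segment 3, 269 at 50 or more UMIs, 2383 with no filter, and 1718 and 202 at the same folds. Fewer genes or spots enter the first of these by construction. The neutrophil median stayed above 0 under all 14 alternatives that gave one, with its lowest value, 0.56, in deep spots and its highest at 1.94. The erythroid median was −0.56 in enclosed spots. The muscle median was −0.027 in deep spots, −0.034 below a muscle share of 5% and −0.18 without segment 2. The osteoblast median was 0.45 in enclosed spots, −0.29 in deep spots, −0.11 below a muscle share of 5%, −0.29, 0.88 and 0.62 without segments 2, 3 and 4, and 0.92 with no filter on genes.

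Among single genes the direction changed as follows, and the cause was not tested. In enclosed spots *Hbb-bs* was at −0.23 and *Hbb-bt* at −0.0023. In deep spots *Hbb-bs* was at −0.16, *Treml1* at −0.27, *Col1a2* at −0.63, *Col1a1* at −0.29, *Acta1* at 0.01 and *Fmod* at 0.26. Below a muscle share of 5%, where the median of all genes was 0.17, *Car3* was at 0.045, *Col1a2* at −0.0032, *Col1a1* at −0.11, *Mmp9* at −0.19, *Acta1* at 0.19, *Myh4* at 0.25 and *Ckm* at 0.20. Without segment 2 of both sections *Col1a2* was at −0.95 and *Col1a1* at −1.01. Without segment 3 of both sections *Hbb-bs* was at −0.23 and *Treml1* at −0.11. Depth limits the sparse lists, since the eosinophil and T cell lists rested on 42 to 108 UMIs per cavity.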
